A study of Mus musculus with 6 samples.

Results

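Canonical Wnt signalling acts through beta-catenin, a protein that a cytoplasmic destruction complex marks for degradation while no signal is present. Wnt ligands bind Frizzled receptors and LRP coreceptors, the complex is held back, and beta-catenin enters the nucleus to join the TCF/LEF family of DNA-binding factors on target genes. In mouse embryonic stem cells kept in LIF/2i medium the pathway is switched on below the receptor, since one of the inhibitors in 2i blocks the kinase GSK3 of the destruction complex, and the relief of the repressor Tcf7l1 is known to sustain naive pluripotency.

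The genes described here are 10 canonical Wnt pathway members chosen by name: the receptor gene Fzd7, the core components Ctnnb1 and Gsk3b, the TCF/LEF factors Tcf7l1, Tcf7, Tcf7l2 and Lef1, and the target genes Axin2, Sp5 and Cdx1. All 10 were found among the 52535 rows of the authors' deposited table, each as 1 row, and all 10 were above the mean of 10 normalized counts required for testing. The table compares E14 mouse embryonic stem cells transfected with an siRNA against Npm1, labelled as NPM1 knockdown, with E14 cells transfected with a control siRNA, labelled as wild type. There were 3 libraries of polyadenylated RNA in each group, collected on day 3 after transfection, and all cells shared the N2B27 medium with LIF/2i. Npm1 encodes nucleophosmin, a protein of the outer, granular layer of the nucleolus, and the study concerns how that layer holds chromatin at the nucleolus. The labels give a single cell line, do not state whether the siRNA was a pool of sequences, and do not state whether replicates were separate cultures, so the p-values cover the spread between the libraries alone, which may be technical.

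After Npm1 siRNA, 1 of the 10 Wnt genes passed the threshold: Tcf7l1, a TCF/LEF factor known as a repressor, rose 1.18-fold (Benjamini-Hochberg adjusted p = 0.0170). No member fell, and none of those with a negative value had a p under 0.05 even before adjustment. In bulk libraries such as these, fewer cells of a kind and less RNA per cell cannot be told apart. The other 9 had log2 fold changes between -0.11 and 0.48 in the authors' deposited table and did not pass, among them Ctnnb1, which encodes beta-catenin, and the widely used pathway readout Axin2. The call on Tcf7l1 was lost once a smooth fit of fold change to GC content and transcript length was taken out. In wider lists of the pathway, 4 of 15 tested receptor and Dishevelled genes rose, where 2.23% of all tested genes did. In the destruction complex list 2 of 14 tested genes fell, where 2.07% of all tested genes did. All of these called genes had means of at least 1000, where 7.67% of all genes were called in either direction. With the fit to GC content and transcript length subtracted 2 receptor and Dishevelled genes rose, and with no filter on low means 1 did. The lists were written with earlier results of these data known.

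The deposited table gives for each gene a mean normalized count over the 6 libraries, a log2 fold change and an unadjusted p, with no value per library. The direction of the fold change is not stated, and positive values were taken to mean higher in Npm1 siRNA cells because Npm1 itself was negative, with a level of 45.3% of control by the authors' deposited table (95% interval 41.0% to 50.1%), so every direction here rests on that reading. A gene was called when its Benjamini-Hochberg adjusted p was under 0.05, with the adjustment run over the 14284 genes whose mean reached 10. By this rule 614 genes were called, 4.30% of those tested, with 318 higher (2.23%) and 296 lower (2.07%). Among the 4813 genes with a mean of at least 1000, where the median implied standard error was 0.081, 7.67% were called. Depth per library is unknown, but the lowest means of the table gave relative scaling factors of 0.923 to 1.06 for the libraries. The 10 embryonic stem cell markers were all present, with a summed mean of 86678 normalized counts in the authors' deposited table, against sums of 736 for 7 primitive streak and mesoderm markers, 974 for 5 neuroectoderm markers, 91.1 for 6 primitive endoderm markers and 42.2 for 7 fibroblast markers. Mesp1, Postn and Dcn were listed at 0. Of the markers tested, 2 of 10 stem cell markers (Utf1 and Sall4) and 1 of 2 neuroectoderm markers (Sox1) rose. Over all tested genes 2.23% rose. The stem cell markers all had means of at least 1000, the range in which 7.67% of genes were called in either direction. None of the 9 tested primitive streak and mesoderm, primitive endoderm and fibroblast markers was called. The part of these markers in the results was not tested.

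TCF/LEF factors recognise a short DNA motif, and upstream windows of 250 bases were searched for its forms CTTTGAT and CTTTGAA on either strand. Other forms of the motif were not searched, so capitals mark only these. RefSeq (GRCm38.p6) gave 15 such windows for 9 of the 10 genes, with Cdx1 not in the table of windows. A match was found in 1 of the 15 windows (6.67%), that of Sp5, against 7.48% of 32851 windows of all genes. The Sp5 match is CTTTGAT and begins 104 bases before the RefSeq start site, at position -104. The upstream sequences shown are those of Sp5 with its match in capitals, of Axin2 as the target gene with the highest mean, and of Tcf7l1 as the gene that rose. The Sp5 window is chr2:70474673-70474922 on the plus strand and that of Axin2 is chr11:108920099-108920348 on the plus strand. For Tcf7l1, on the minus strand, only the 41 bases that lie upstream of both the RefSeq and the GENCODE start are printed, chr6:72789255-72789295. All are written 5′ to 3′ along the gene. Neither motif occurs in the Axin2 or Tcf7l1 window, which says only that these letters are not within it.
Sp5: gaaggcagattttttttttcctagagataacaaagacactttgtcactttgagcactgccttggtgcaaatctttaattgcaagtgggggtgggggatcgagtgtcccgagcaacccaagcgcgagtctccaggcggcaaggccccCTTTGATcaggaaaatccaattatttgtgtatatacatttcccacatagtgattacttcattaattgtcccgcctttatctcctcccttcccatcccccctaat
Axin2: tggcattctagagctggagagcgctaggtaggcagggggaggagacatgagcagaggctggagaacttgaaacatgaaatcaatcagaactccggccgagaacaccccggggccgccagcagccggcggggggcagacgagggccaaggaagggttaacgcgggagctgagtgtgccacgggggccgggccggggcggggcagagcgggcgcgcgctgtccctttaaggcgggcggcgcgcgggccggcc
Tcf7l1: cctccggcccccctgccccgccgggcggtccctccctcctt

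The receptor gene Fzd7 encodes a Frizzled protein (chromosome 1, 59482424 to 59486955, GRCm38). Its mean was 837 normalized counts in the authors' deposited table, below those of the Frizzled genes Fzd5 (4068) and Fzd10 (1097). With equal group sizes, the mean and fold change of Fzd7 give derived levels of 932 in Npm1 siRNA cells and 743 in control siRNA cells. The log2 fold change was 0.33 in the authors' deposited table (implied SE 0.12, 95% interval 0.08 to 0.57), exceeded among the 10 genes only by that of Cdx1. Its unadjusted p of 0.00867 in that table became a Benjamini-Hochberg adjusted p of 0.121 over all tested genes, above the threshold, and no gene with an unadjusted p above 0.00214 was called.

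Ctnnb1 and Gsk3b, the core of the pathway, had fold changes close to 0 with narrow intervals. Ctnnb1 (chromosome 9, 120929216 to 120960507) had a mean of 12560 normalized counts in the authors' deposited table, rank 313 of all genes. The derived levels were 12462 in Npm1 siRNA cells and 12658 in control siRNA cells. Its log2 fold change was -0.02 in the authors' deposited table (implied SE 0.052, adjusted p = 0.904), and the 95% interval ran from 91.8% to 106% of control. Its annotated exons overlap those of Ulk4 on the opposite strand, which had a mean of 59.6 normalized counts in the authors' deposited table. Gsk3b encodes a kinase that phosphorylates beta-catenin for degradation (chromosome 16, 38089001 to 38246084). It had derived levels of 3152 in Npm1 siRNA cells and 3109 in control siRNA cells, with a log2 fold change of 0.02 in the authors' deposited table (adjusted p = 0.941). For Gsk3b the interval was 91.9% to 112% of control. Changes in the transcripts of these core genes beyond about those limits are therefore outside the 95% intervals, and changes within them cannot be told from none. Protein level and the location of beta-catenin were not measured here.

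**Figure D1:**
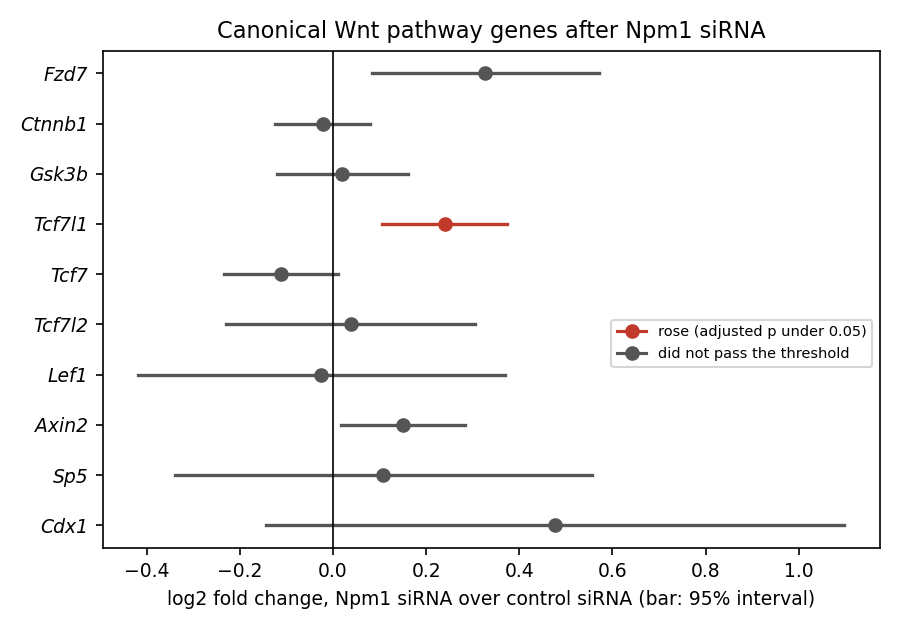
Log2 fold change of each of the 10 Wnt pathway genes (x axis, Npm1 siRNA over control siRNA, from the authors' deposited table), ordered from the receptor at the top through the core and the TCF/LEF factors to the targets. Points are the fold changes and bars the 95% intervals from the implied standard errors; Tcf7l1 at 0.24 is the gene that passed the threshold, and Cdx1 at 0.48 has the widest interval.

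Of the 4 TCF/LEF genes, Tcf7l1 rose and the other 3 did not pass. Tcf7l1, formerly known as Tcf3 and a repressor of pluripotency genes in embryonic stem cells (chromosome 6, 72626378 to 72789254), had derived levels of 6527 in Npm1 siRNA cells and 5528 in control siRNA cells. The log2 fold change was 0.24 in the authors' deposited table (implied SE 0.068, 95% interval 0.11 to 0.37), and the adjusted p was 0.0170. It ranked 386 by p among the 14284 tested genes. The change is small beside the other calls: of the genes that rose, 274 had a higher log2 fold change than Tcf7l1 and 43 a lower one. The median among genes that rose was 0.36. The antisense gene Gm15401, whose exons overlap those of Tcf7l1, had a mean of 4.36 normalized counts in the authors' deposited table.

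The longest Tcf7l1 transcript has a GC content of 59.3%, among the 2781 tested genes with the highest GC content (55.2% to 75.5%). Of those genes 4.17% rose and 1.19% fell, while in the other 4 classes of about that size 1.51% to 2.27% rose and 1.55% to 2.84% fell. With the fit to GC content and length subtracted, the log2 fold change of Tcf7l1 was 0.14 and its adjusted p was 0.310. The part of GC content in this result was not tested beyond that subtraction. A test against a fold of 1.2 could not keep the call, because the estimate of 1.18-fold lies below that limit.

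Tcf7, mainly an activator that can replace Tcf7l1 on target genes once beta-catenin is present (chromosome 11, 52252371 to 52283014), had derived levels of 4026 in Npm1 siRNA cells and 4349 in control siRNA cells. Its log2 fold change was -0.11 in the authors' deposited table (95% interval -0.23 to 0.01, adjusted p = 0.372). The sign was opposite to that of Tcf7l1, but the difference between the genes was not tested. Tcf7l2, the main TCF factor of the intestine (chromosome 19, 55741820 to 55933654), had derived levels of 494 in Npm1 siRNA cells and 481 in control siRNA cells. The log2 fold change of Tcf7l2 was 0.04 in the authors' deposited table (95% interval -0.23 to 0.31, adjusted p = 0.940). Lef1, both a member of the family and a target of the pathway (chromosome 3, 131110471 to 131224356), had derived levels of 214 in Npm1 siRNA cells and 218 in control siRNA cells. Its log2 fold change was -0.03 in the authors' deposited table (95% interval -0.42 to 0.37, adjusted p = 0.978), so levels from 74.8% to 129% of control fall inside the interval.

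Per length, the family was uneven. Derived levels per kilobase of the longest annotated transcript were 2146 for Tcf7l1 in Npm1 siRNA cells and 1817 in control siRNA cells. For Tcf7 they were 1629 per kilobase in Npm1 siRNA cells and 1760 in control siRNA cells. Tcf7l2 stood far lower, at 133 per kilobase in Npm1 siRNA cells and 129.5 in control siRNA cells, and Lef1 was the lowest of the family, at 58.5 in Npm1 siRNA cells and 59.5 in control siRNA cells. By this measure Tcf7l1 and Tcf7 were the main family members by transcript level in both groups. Over both groups the order per kilobase of the 10 members was Ctnnb1, Tcf7l1, Tcf7, Axin2, Gsk3b, Fzd7, Sp5, Tcf7l2, Cdx1 and Lef1. With the union of all annotated exons as the length, a choice made after seeing the data, Tcf7 (1595 per kilobase) came before Tcf7l1 (1536) and Cdx1 (61.2) before Tcf7l2 (55.5), so the order within these pairs depends on the transcript model, and no level has an error by which neighbours could be tested.

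**Figure D2:**
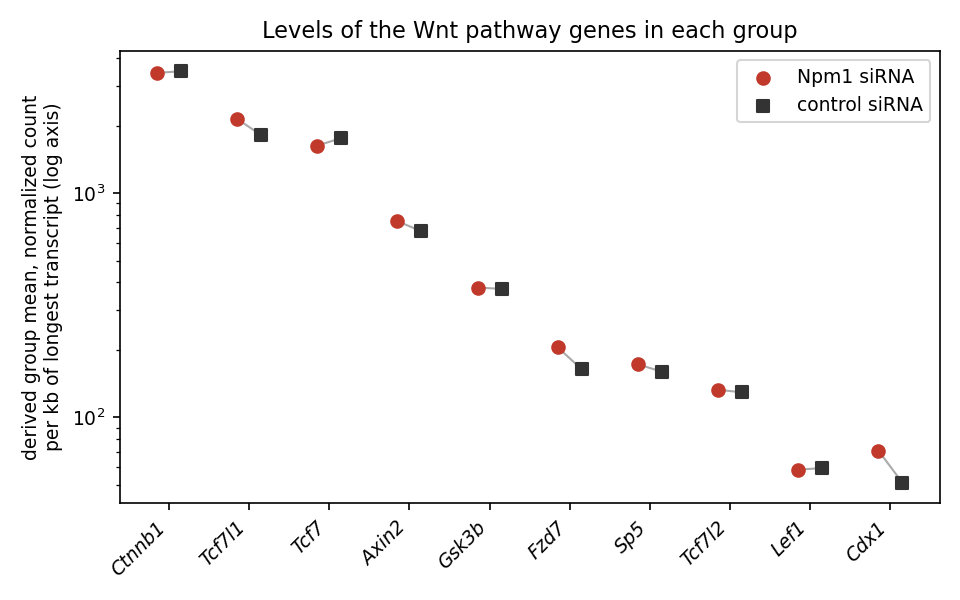
Derived group means of the 10 genes (y axis, normalized counts per kilobase of the longest transcript, log axis), with Npm1 siRNA as circles left of control siRNA as squares. Levels span from 58.5 for Lef1 to 3440 for Ctnnb1 in Npm1 siRNA cells and from 51.15 for Cdx1 to 3494 for Ctnnb1 in control siRNA cells; the values come from pooled means and carry no error per library.

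None of the 3 target genes passed the threshold. All 3 had positive values as deposited, and Sp5 a negative one with the fit to GC content and length subtracted. Axin2 encodes a scaffold of the destruction complex that the pathway itself induces (chromosome 11, 108920349 to 108950783). It had derived levels of 3198 in Npm1 siRNA cells and 2880 in control siRNA cells. Its log2 fold change of 0.15 in the authors' deposited table had a 95% interval of 0.02 to 0.28, an unadjusted p of 0.0260 and an adjusted p of 0.222. Axin2 is the most precisely measured of the targets, and levels above 122% of control lie outside its interval. The antisense gene Gm11670, whose exons overlap those of Axin2, had a mean of 3.63 normalized counts in the authors' deposited table.

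Sp5, a zinc finger factor induced directly by beta-catenin (chromosome 2, 70474923 to 70477729), carries the CTTTGAT match shown above. It had derived levels of 362 in Npm1 siRNA cells and 336 in control siRNA cells, with a log2 fold change of 0.11 in the authors' deposited table (95% interval -0.34 to 0.56, adjusted p = 0.891). With the fit to GC content and length subtracted the value for Sp5 was -0.02, of the other sign.

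Cdx1, a caudal-type homeobox factor of the posterior embryo and intestine (chromosome 18, 61018862 to 61036199), was the least abundant member by mean count. It had derived levels of 125 in Npm1 siRNA cells and 89.5 in control siRNA cells. Its log2 fold change of 0.48 was the highest of the 10 in the authors' deposited table, but the implied SE was 0.32 and the 95% interval ran from -0.14 to 1.10 (adjusted p = 0.497). The point estimate for Cdx1 is therefore about 1.39-fold with levels from 90.5% to 214% of control inside the interval, which also holds the values of Axin2 and Sp5.

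Read as a group, 7 of the 10 members had positive log2 fold changes in the authors' deposited table, where 50.4% of all tested genes did. The median of the members was 0.07, against 0.002 over all tested genes. At an unadjusted p under 0.05 there were 3 members, Tcf7l1, Fzd7 and Axin2, all with positive values, or 30.0% of the members against 16.3% of all tested genes. That 16.3% includes 3013 genes with means of 10 to 50, while the lowest mean of a member was 107 (Cdx1). An unadjusted share at matched means was not computed. The share called was 1 of 10 against the 4.30% over all genes, and 1 of the 5 members with a mean of at least 1000 against 7.67%. No difference between the members and the rest of the table was tested.

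**Figure D3:**
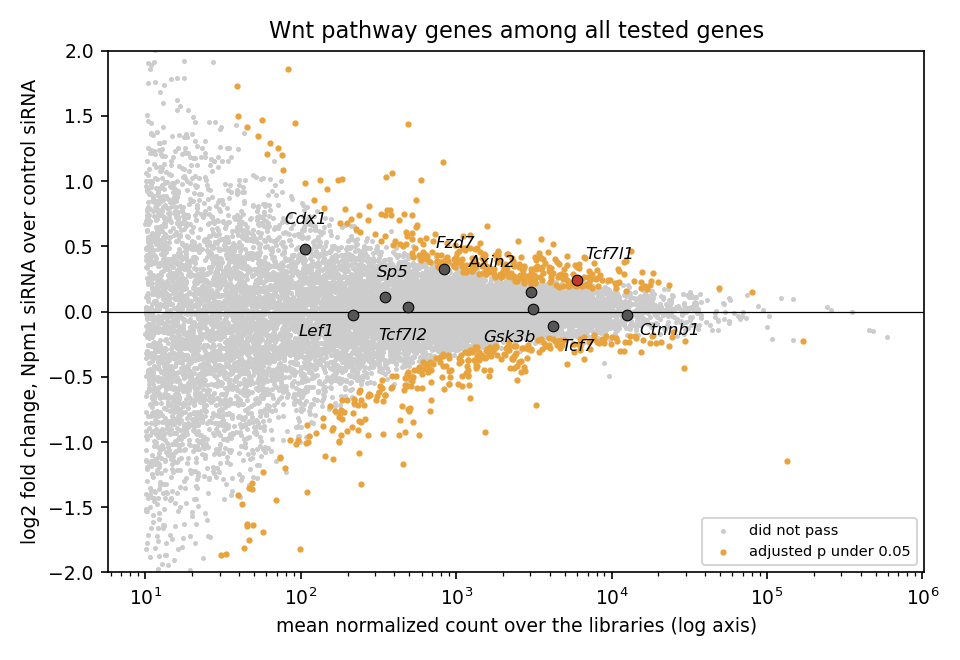
Log2 fold change (y axis, Npm1 siRNA over control siRNA) against mean normalized count (x axis, log axis) for the tested genes, with called genes in orange and the 10 Wnt pathway genes as outlined points; 31 genes beyond the limits of -2 and 2 are not drawn. Tcf7l1 lies among the called genes with smaller fold changes, 274 of those that rose being higher and 43 lower, while Fzd7 and Cdx1 have higher fold changes at lower means and are not called.

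Wider lists placed the members in the pathway; they hold 130 gene symbols, 94 of them tested, and were written with earlier results of these data known. Ligands were scarce. Of 25 genes for Wnt ligands, R-spondins and ligand secretion, 5 were listed at 0, 16 more had means under 10, and 4 were tested. None of the 4 was called, against 4.30% of all tested genes. At an unadjusted p under 0.05 there was 1 ligand, Wnt5b, better known for signalling independent of beta-catenin, with a log2 fold change of 0.83 in the authors' deposited table (95% interval 0.27 to 1.39, adjusted p = 0.0666). Wls, the carrier that brings Wnt proteins to the cell surface, had a log2 fold change of 0.08 in the authors' deposited table (adjusted p = 0.887).

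Receptors and Dishevelled genes held the most calls of the wider lists. Of 15 tested, 4 rose, none fell and 11 did not pass, or 26.7% called against 4.30% of all tested genes. All 4 were among the 7 genes of the list with means of at least 1000, a range in which 7.67% of all genes were called. Dvl3, a Dishevelled adaptor that relays the signal from Frizzled, rose 1.41-fold (log2 0.49 in the authors' deposited table, 95% interval 0.26 to 0.73, adjusted p = 0.00290). The Frizzled genes Fzd10 and Fzd5 also rose, by 0.35 (95% interval 0.14 to 0.56) and 0.24 (0.09 to 0.39) on a log2 scale, as did Lgr4, a receptor for R-spondins, by 0.27 (0.11 to 0.43), all by the authors' deposited table. At an unadjusted p under 0.05 there were 9 genes, or 60% of the 15 against 16.3% of all tested genes. An unadjusted share at matched means was not computed. Of the 9 genes, 7 had positive and 2 negative values, where all tested genes gave 1210 and 1113. Fzd7 is among the 7. By the authors' deposited table the coreceptor genes had opposite signs and did not pass, Lrp6 with 0.17 (adjusted p = 0.177) and Lrp5 with -0.17 (adjusted p = 0.212). The median of the 15 log2 fold changes was 0.20. With the fit to GC content and length subtracted, Dvl3 and Lgr4 stayed past the threshold, while Fzd5 and Fzd10 each had an adjusted p of 0.097. With no filter on low means only Dvl3 of the 4 did, the others having adjusted p from 0.0517 to 0.0796.

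In the destruction complex list, 2 of 14 tested genes fell, none rose and 12 did not pass, or 14.3% called against 4.30% of all tested genes. Both were among the 11 genes of the list with means of at least 1000, where 7.67% of all genes were called. Tnks, a tankyrase that marks Axin for degradation, fell to 80.3% of control (log2 -0.32 in the authors' deposited table, 95% interval -0.45 to -0.18, adjusted p = 0.000649). Csnk1a1, the kinase that primes beta-catenin for GSK3, fell to 86.9% of control (log2 -0.20 in the authors' deposited table, adjusted p = 0.0130). These proteins act in opposite directions, since tankyrase lowers Axin and casein kinase helps to destroy beta-catenin. By the authors' deposited table the log2 fold change was 0.01 for Tnks2, the close relative of Tnks, and 0.05 for Apc, the scaffold of the complex, neither past the threshold.

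Among beta-catenin, the TCF/LEF factors and their nuclear partners, Tcf7l1 was the only call in 23 tested genes (4.35%, against 4.30% of all tested genes), with a list median of 0.01. The coactivator Ep300 had a log2 fold change of 0.06 in the authors' deposited table (adjusted p = 0.655). Of 14 tested genes in the list of secreted and membrane inhibitors, 1 rose and 1 fell, or 14.3% called against 4.30% of all tested genes. Apcdd1, a membrane inhibitor that is also a target of the pathway, rose 1.52-fold (log2 0.60 in the authors' deposited table, 95% interval 0.34 to 0.87, adjusted p = 0.000717). Dkk3, a divergent member of the Dickkopf family, fell to 52.7% of control (log2 -0.92 in the authors' deposited table, 95% interval -1.22 to -0.62, adjusted p = 1.12e-06), the largest change of any called gene in the wider lists. Whether Dkk3 acts on the pathway in these cells was not tested. The other 12 genes of the list did not pass, among them the secreted antagonist Sfrp1 (-0.16) and the Wnt deacylase Notum (0.17), by the authors' deposited table.

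**Figure D4:**
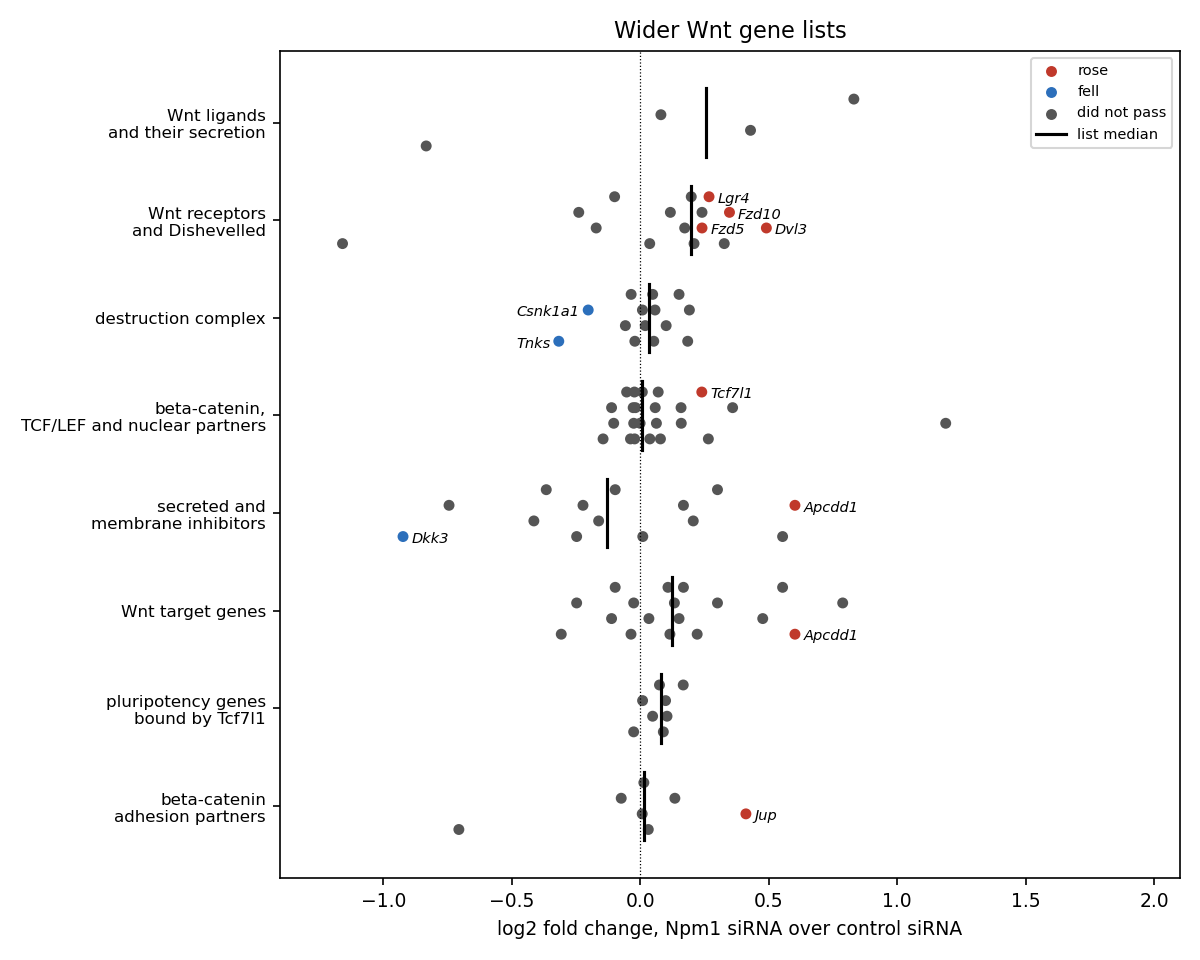
Log2 fold change (x axis, Npm1 siRNA over control siRNA) of each tested gene in the 8 wider Wnt lists, with called genes named and coloured by direction and the list median as a bar; position within a row carries no meaning. The 4 called receptor and Dishevelled genes lie between 0.24 and 0.49, and the 2 called destruction complex genes at -0.32 and -0.20.

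Of 18 tested genes in the list of Wnt targets, which includes Axin2, Sp5, Cdx1, Lef1 and Tcf7, Apcdd1 (also counted among the inhibitors) rose, none fell and 17 did not pass (5.56% called, against 4.30% of all tested genes), with a median of 0.12 on the log2 scale. Ccnd1, the cyclin D1 gene, had a log2 fold change of 0.12 in the authors' deposited table (adjusted p = 0.337). A further list held pluripotency genes known to be bound by Tcf7l1. None of the 8 was called, against 4.30% of all tested genes. All 8 had means of at least 1000, where 7.67% of all genes were called. Positive values were found in 7 of the 8 (87.5%, against 50.4% of all tested genes), with a median of 0.08. Nr5a2, at 0.17 in the authors' deposited table, was the 1 gene with an unadjusted p under 0.05. By the authors' deposited table the 2 most abundant, Tfcp2l1 (0.05, adjusted p = 0.732) and Esrrb (0.08, adjusted p = 0.700), stayed near 0. In the adhesion list, where beta-catenin joins cadherins to the cytoskeleton, Jup rose 1.33-fold (log2 0.41 in the authors' deposited table, 95% interval 0.26 to 0.56, adjusted p = 1.20e-05) and the other 6 tested genes did not pass, or 14.3% called against 4.30% of all tested genes. Jup encodes plakoglobin, the closest relative of beta-catenin, and shares its place at cell junctions. Its GC content of 58.8% is close to that of Tcf7l1, and its log2 fold change with that fit subtracted was 0.32 (adjusted p = 0.00215). The cadherin gene Cdh1 was at 0.03 and the catenin gene Ctnna1 at 0.01 in the authors' deposited table, neither past the threshold.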

How the data were processed

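Polyadenylated RNA of E14 cells was sequenced in 6 libraries, 3 with Npm1 siRNA and 3 with control siRNA. Per the submitters' processing notes, FastQC, Trimmomatic 0.36, STAR and DESeq2 were used with GRCm38 (mm10); how reads were counted, with which strand setting, annotation and model, is not given in the sources used here. The deposited mean is a signal value, read counts scaled per library and averaged over both groups. The deposited log2 fold change and p-value are the authors' own, with the direction read from Npm1.

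The planned count model needs values per library and could not be fitted, so the authors' p-values were adjusted by Benjamini-Hochberg over all 14284 genes with a mean of at least 10. The implied standard error is the log2 fold change over the normal quantile of p, and 95% intervals follow from it; this is exact for a Wald test. Group levels were derived from mean and fold change. GENCODE vM21 (GRCm38) matched 13906 tested genes (97.4%) by symbol. The fit of fold change to GC content and log2 transcript length is a B-spline of 5 degrees of freedom each (Python 3.11.15, scipy 1.17.1, statsmodels 0.14.6).

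Members and lists were chosen with earlier results of these data known. Named are all members, Npm1, each called gene of a wider list and its 2 most abundant genes not called; Wnt5b falls under this rule, while Nr5a2, Ulk4, Gm15401, Gm11670, the cell type markers and the further genes of the closing section were named after their values were seen. Counts of calls are set beside the share of all genes called, with no set test.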

Additional observations from a re-analysis of the deposited data

How the results depend on the processing

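Recentring on the median (a shift of 0.002), a mean of at least 50 and standard errors from a t quantile changed no call among the members or the called list genes; the t quantile alters intervals only. With the fit to GC content and length subtracted, 231 genes rose and 249 fell, and 437 of the 614 calls were kept in the same direction. The fit and its adjustment ran over the 13906 tested genes matched by symbol. These hold 606 of the 614 called genes, so the remaining calls could not be kept. Calls among the members and among nuclear partners went to 0 (Tcf7l1 0.14, adjusted p = 0.310), and 2 receptor genes rose in place of 4. With no filter on low means 1 receptor gene rose. Against a fold of 1.2, 9 genes rose and 12 fell over all genes, Tcf7l1 (0.24) had an adjusted p of 1, and counts were 0 for the members that rose, for receptors, nuclear partners, inhibitors, targets and adhesion genes that rose, and for destruction complex genes that fell; Dkk3 was the only list gene past that test. The estimates of Tcf7l1, Fzd5 (1.18-fold) and Csnk1a1 (86.9% of control) lie within a fold of 1.2, so that test could not keep their calls. Only the fit to GC content and length moved the log2 fold changes by more than 0.002. With it subtracted, Ctnnb1, Gsk3b, Tcf7, Tcf7l2, Axin2, Fzd7 and Cdx1 kept their sign. Sp5 and Lef1 (-0.03 as deposited) had the other sign with that fit subtracted, at -0.02 and 0.00089. The cause of these shifts was not tested.

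Leaving out each replicate was not run, since the table holds no values per library. No paired analysis was possible because the table carries no columns per replicate. Precision is limited by abundance: the median implied standard error was 0.65 for genes with means of 10 to 50 and 0.081 for means of at least 1000, and it was 0.32 for Cdx1.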

Other observations

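Some low-abundance Wnt genes stayed outside the tests because their means were under 10. Lgr6, an R-spondin receptor, had a mean of 9.88 normalized counts and a log2 fold change of -1.91 (unadjusted p = 0.0534), and Frzb, a secreted Frizzled-related protein, a mean of 4.15 and a log2 fold change of 3.54 (unadjusted p = 0.0385), both by the authors' deposited table. Wnt3 and Wnt3a, ligands of the primitive streak, had means of 2.84 and 3.93 in the authors' deposited table. These genes were chosen after their values were seen. At such means the fold changes rest on a few reads and are given as values only.

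Among genes of the wider lists that did not pass, the Frizzled gene Fzd3 stood at -1.16 on a log2 scale (adjusted p = 0.252), the corepressor gene Tle2 1.19 (adjusted p = 0.188), N-cadherin, Cdh2, -0.71 (adjusted p = 0.116) and the receptor gene Tnfrsf19 -0.31 (adjusted p = 0.0620), by the authors' deposited table; these were also chosen after their values were seen.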
